A study of Mus musculus with 9 samples.

Results

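Transcripts that are typical of the atrium were measured in the right ventricle of 9 mice, and in the mice given MCT most of them were among the transcripts with the widest range between mice of the same group. The transcripts described are Nppa, Bmp10, Dkk3, Myl4, Myl7, Sln and Gja5, 7 of 18820 genes measured. They were picked because earlier results of these same arrays had shown their levels to be high in some mice and low in others, so their levels, their differences between groups and their spread within groups are descriptions and were given no test. Each was represented by 1 probe set annotated to that gene alone.

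RNA of the right ventricle, dissected from the left ventricle, of female C57BL/6 mice was hybridised to Affymetrix mouse gene 1.1 ST arrays, 1 array per mouse. Sham mice (620, 624 and 625) received saline and the AIN-93M control diet. MCT mice (640, 641 and 644) received the same diet and monocrotaline (MCT), a plant alkaloid whose liver metabolites injure the pulmonary vessels, subcutaneously at 600 mg/kg each week for 8 weeks. MCT + NI mice (615, 617 and 619) received the same injections with a nutritional intervention (NI), an isocaloric diet rich in protein, leucine, fish oil and oligosaccharides. The mice arrived at 8 weeks of age and the injections began at 10 weeks. All groups received their diets before the injections, for 2 weeks in the labels and 1 week in the methods. The methods describe the 3 mice of each group as matched for disease severity. The values are log2 intensities after robust multi-array analysis (RMA), so that a difference of 1 is a doubling, and they were used as deposited. The median of the genes on an array lay between 5.36 and 5.46.

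Working atrial and ventricular muscle cells use different versions of several contractile, secretory and channel proteins. Atrial cells store atrial natriuretic peptide in granules, carry their own pair of myosin light chains, restrain the calcium pump with sarcolipin where ventricular cells mainly use phospholamban, and couple through Cx40 beside Cx43, the connexins of their gap junctions. In the adult heart BMP10 is made chiefly by the muscle cells of the right atrium. The ventricle can switch Nppa back on under load, and Cx40 is also found in the conduction system and in arterial endothelium. In a piece of tissue, a change in the share of one cell type and a change in the RNA made per cell cannot be told apart, and this holds for every result below.

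The sequence just upstream of 3 of these genes, a hormone, a ligand and a contractile protein, is shown because it precedes the annotated start of each. Whether transcription begins at that start in these mice was not tested. The 3 genes moved together across the mice, and a link of these stretches to that was not tested. Of the 7 genes, 5 had a stretch in the RefSeq table used here (build GRCm38.p6). Each line gives the 250 bases before the annotated start, 5′ to 3′ on the strand of the gene. Capitals mark matches, on either strand, to 6 short motifs. GATA factors bind sites such as AGATAA and TGATAA, the latter added here after the sequences had been seen. NKX2-5 binds sites with the letters CACTT. A site of T-box factors was written as AGGTGT. The TATA box was searched as TATAAA. A nuclear receptor site was written as AGGTCA. Nppa lies on chromosome 4 (chr4:148000472-148000721, plus strand), Bmp10 on chromosome 6 (chr6:87428744-87428993, plus strand) and Myl7 on chromosome 11 (chr11:5898783-5899032, minus strand).
Nppa: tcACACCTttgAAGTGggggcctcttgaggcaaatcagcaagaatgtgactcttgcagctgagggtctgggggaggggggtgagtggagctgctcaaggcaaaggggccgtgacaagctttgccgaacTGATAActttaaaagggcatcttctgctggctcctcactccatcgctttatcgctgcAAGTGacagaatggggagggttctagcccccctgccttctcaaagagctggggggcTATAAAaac
Bmp10: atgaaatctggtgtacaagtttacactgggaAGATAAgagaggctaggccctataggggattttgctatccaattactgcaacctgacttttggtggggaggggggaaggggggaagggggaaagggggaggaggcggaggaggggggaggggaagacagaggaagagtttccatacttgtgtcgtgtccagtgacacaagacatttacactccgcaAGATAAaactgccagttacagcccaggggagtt
Myl7: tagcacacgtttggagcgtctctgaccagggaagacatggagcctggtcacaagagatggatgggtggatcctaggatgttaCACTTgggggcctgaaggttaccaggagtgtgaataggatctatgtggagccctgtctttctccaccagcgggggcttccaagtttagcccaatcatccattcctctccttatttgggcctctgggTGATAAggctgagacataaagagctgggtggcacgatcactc

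The Nppa stretch held TGATAA from 122 to 117 bases before the start, CACTT on the opposite strand at 239 to 235 and at 65 to 61, AGGTGT on the opposite strand at 248 to 243, and TATAAA at 9 to 4. In the Bmp10 stretch AGATAA occurred at 219 to 214 and again at 33 to 28. The Myl7 stretch held CACTT at 168 to 164 and TGATAA at 42 to 37. No match overlapped another. Such letters are common: of 32851 upstream stretches of the same length, AGATAA was present in 9.99%, TGATAA in 7.94%, CACTT in 40.7%, AGGTGT in 11.8%, TATAAA in 12.4% and AGGTCA in 14%. The matches describe these windows only.

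The secreted proteins are described first. Nppa encodes the precursor of atrial natriuretic peptide, a hormone that lowers blood volume and pressure. Its log2 intensity was 12.86, 13.03 and 13.07 in sham mice 620, 624 and 625, 9.93, 10.43 and 12.96 in MCT mice 640, 641 and 644, and 12.49, 10.31 and 10.14 in MCT + NI mice 615, 617 and 619. MCT mouse 644 therefore lay among the sham mice and the other MCT mice far below them, while mouse 615 stood closer to the sham mice than to its own group. The means were 12.99 ± 0.11 for sham, 11.11 ± 1.63 for MCT and 10.98 ± 1.31 for MCT + NI mice (SD, n = 3). Even in the lowest mouse Nppa remained brighter than 97.4% of the genes on that array.

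Bmp10, a ligand of the TGF-beta superfamily that acts on endothelial ALK1 and on heart muscle, had log2 intensities of 10.95, 11.94 and 12.00 in sham mice 620, 624 and 625. In the MCT mice it was 3.48 (640), 3.72 (641) and 11.25 (644), and in the MCT + NI mice 8.60 (615), 5.38 (617) and 3.38 (619). The group means were 11.63 ± 0.59, 6.15 ± 4.42 and 5.79 ± 2.63. Mouse 644 exceeded mouse 640 by 7.77, a 218-fold difference in intensity between a pair of mice of 1 group. On the array of mouse 640 only 24.9% of the genes were dimmer than Bmp10, and near this lower end an intensity ratio says little about the ratio of transcripts.

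Dkk3, a secreted glycoprotein of the Dickkopf family that is abundant in atrial tissue, was at 8.46, 9.56 and 9.37 in the sham mice. The MCT mice had 4.86, 5.38 and 9.22, in the order 640, 641 and 644, and the MCT + NI mice 7.35, 5.07 and 5.05, in the order 615, 617 and 619. Mouse 644 again lay inside the sham range, and mice 617 and 619 differed by only 0.01.

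Among the contractile proteins, Myl7 encodes the regulatory and Myl4 the essential light chain of atrial myosin. Myl7 had log2 intensities of 10.55, 11.77 and 11.57 in the sham mice, 3.07, 3.66 and 11.40 in MCT mice 640, 641 and 644, and 9.79, 5.21 and 3.92 in MCT + NI mice 615, 617 and 619. This was a 323-fold difference within the MCT group and a 58.7-fold difference within the MCT + NI group, against 2.33-fold within the sham group. On the array of mouse 640 only 17.2% of the genes were dimmer than Myl7, whereas on that of mouse 644 99.4% were. Myl4 was at 11.63, 12.38 and 12.27 in the sham mice, at 5.62, 5.68 and 12.07 in the MCT mice and at 11.01, 6.83 and 5.58 in the MCT + NI mice. The intensity of Myl4 in mouse 615 corresponded to 47.0% of the geometric mean of the sham mice, in mouse 617 to 2.61% and in mouse 619 to 1.09%.

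Sln encodes sarcolipin, a small membrane protein that inhibits the calcium pump of the sarcoplasmic reticulum. It was at 6.57, 7.60 and 7.40 in the sham mice, at 3.81, 4.15 and 7.23 in MCT mice 640, 641 and 644, and at 5.71, 3.23 and 3.39 in MCT + NI mice 615, 617 and 619. Sln was the single one of the 7 transcripts that was lower in mouse 617 than in mouse 619. Gja5 encodes Cx40, the gap junction protein that couples atrial muscle cells. It was at 6.72, 8.04 and 8.04 in the sham mice, at 5.30, 5.62 and 7.31 in the MCT mice and at 5.79, 5.64 and 5.58 in the MCT + NI mice. Gja5 differed from the others in the MCT + NI group, where its range was 0.21 and mouse 615 did not stand apart.

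**Figure D1:**
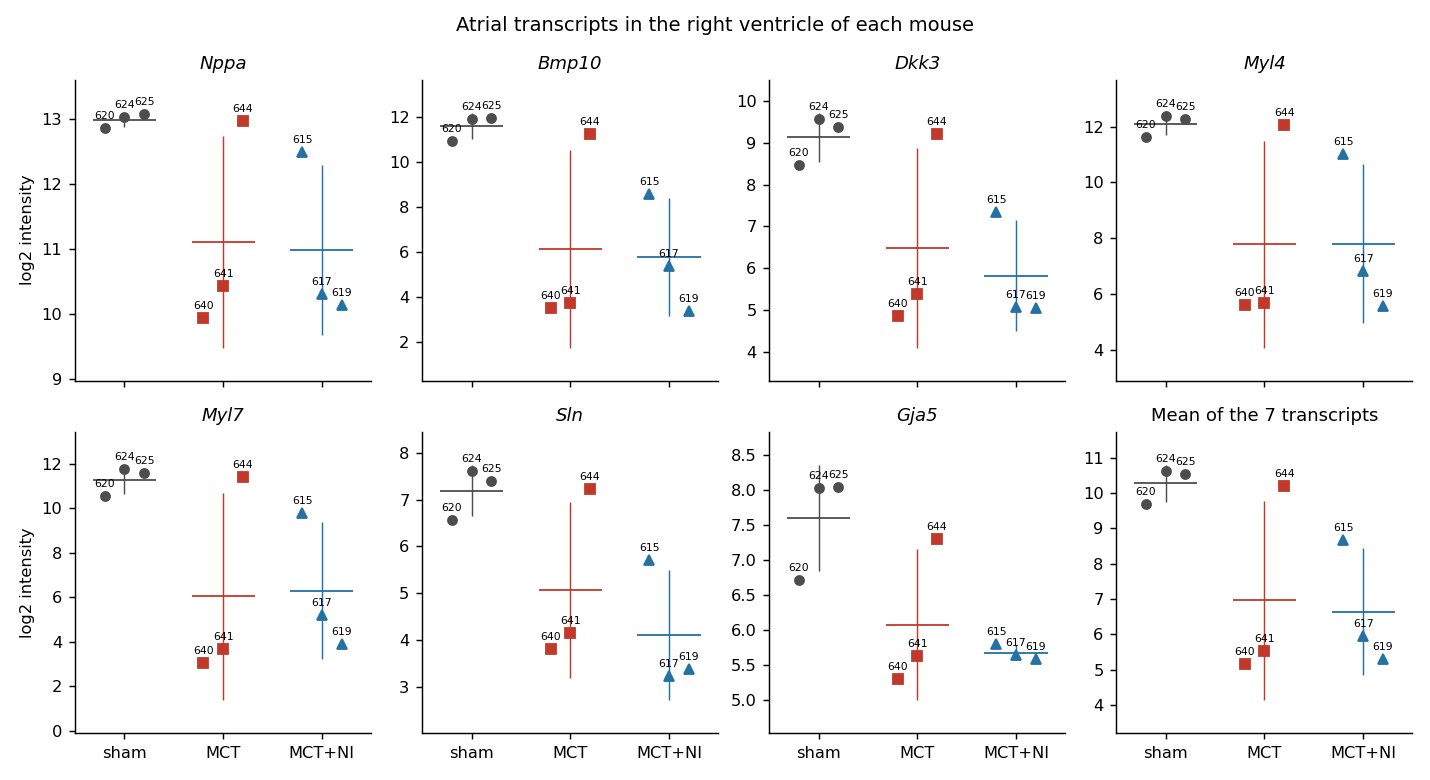
The log2 intensity of each of the 7 transcripts and their mean (vertical axes) is plotted for every mouse of the sham, MCT and MCT + NI groups (horizontal axes), with the group mean as a horizontal and 1 SD as a vertical line (n = 3). MCT mouse 644 lies with the sham mice in each panel, MCT mice 640 and 641 lie far below it, and mouse 615 is the highest MCT + NI mouse in each panel.

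The mice kept nearly the same order in all 7 transcripts. Sham mice 624 and 625 held the first and second places, MCT mouse 644 was in place 3, sham mouse 620 in place 4 and MCT + NI mouse 615 in place 5 for each transcript. Mice 640, 641, 617 and 619 were the 4 lowest for 7 of 7 transcripts. Among these, mouse 641 was above 640 for 7 of 7, and mouse 617 above 619 for 6 of 7. The mean of the 7 log2 values was 9.68, 10.62 and 10.53 in the sham mice, 5.15, 5.52 and 10.20 in the MCT mice, and 8.68, 5.95 and 5.29 in the MCT + NI mice. Across the 21 pairs of these transcripts the correlation over the 9 mice ranged from 0.85 to 0.998, with a median of 0.97. After the group means had been taken away, the median was also 0.97 and the lowest value, that of Nppa with Gja5, was 0.71. The mice form a high and a low set with a wide gap, and the transcripts share the same 9 arrays, so these correlations largely restate that gap.

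The question of the study was whether the right ventricle differs between sham and MCT mice and whether NI changes this, and the 7 transcripts give a group difference whose size rests on single mice. MCT mice had a mean log2 level 3.32 below sham mice over the 7 transcripts (standard error 1.65), and MCT + NI mice 3.63 below sham mice (standard error 1.08). The levels of MCT and sham mice overlapped for 7 of 7 transcripts, through mouse 644 alone, and those of MCT + NI and sham mice for 0 of 7. Across all genes, 10.2% had MCT mice below sham mice without overlap, 10.3% had MCT + NI mice below sham mice, and 2.96% had MCT + NI mice below MCT mice. Nothing is read from this contrast, since the transcripts were chosen on these levels and both comparisons use the same sham mice. Without mouse 644, the difference between MCT and sham mice widened to -4.94, and without mouse 615 that between MCT + NI and sham mice to -4.65.

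Between MCT + NI and MCT mice the mean of the 7 transcripts differed by -0.32 (standard error 1.93), less than the spread of either group. Its sign depended on which mouse was kept: the difference was 1.3 without mouse 644, -1.34 without mouse 615 and 0.29 without both. For the single transcripts it ran from -0.95 for Sln to 0.27 for Myl7, and for none of the 7 did the groups separate. The order of the group means was sham, MCT and MCT + NI for Nppa, Bmp10, Dkk3, Sln and Gja5, and sham, MCT + NI and MCT for Myl4 and Myl7. Neighbouring means of the MCT groups did not differ beyond their spread in any of the 7.

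Very few genes varied this much within a group. The median range over the 3 mice of a group was 0.19 for sham, 0.16 for MCT and 0.17 for MCT + NI mice over the 18820 genes. A range above 2 was found for 7 genes among the sham mice, 52 among the MCT mice and 36 among the MCT + NI mice, and these included 0, 7 and 6 of the atrial transcripts. Myl7, Bmp10 and Myl4 held places 1, 2 and 3 in the MCT group, with ranges of 8.33, 7.77 and 6.45. In the MCT + NI group Myl7 was again first (5.88), followed by Myl4 (5.43) and Bmp10 (5.22). In contrast Gja5, just inside the count in the MCT group with a range of 2.01, held place 52 there and place 7460 in the MCT + NI group. The sham mice also differed, with ranges from 0.21 for Nppa to 1.32 for Gja5, and mouse 620 was the lowest sham mouse for 7 of 7 transcripts.

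Both lists of wide-ranging genes shared 22 genes, which were 42.3% of the MCT list and 61.1% of the MCT + NI list. In 14 of the 22, among them the 6 atrial transcripts other than Gja5, the highest mice were 644 and 615. These also included Mybphl, a myosin-binding protein of the atrium, Hamp, the precursor of the iron hormone hepcidin, Tmem163, a zinc transporter, and Upk3b, a marker of mesothelium. The other 8 were highest in mice 640 and 619 and were mostly interferon-induced genes, such as Irgm1, Iigp1 and Cd274.

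**Figure D2:**
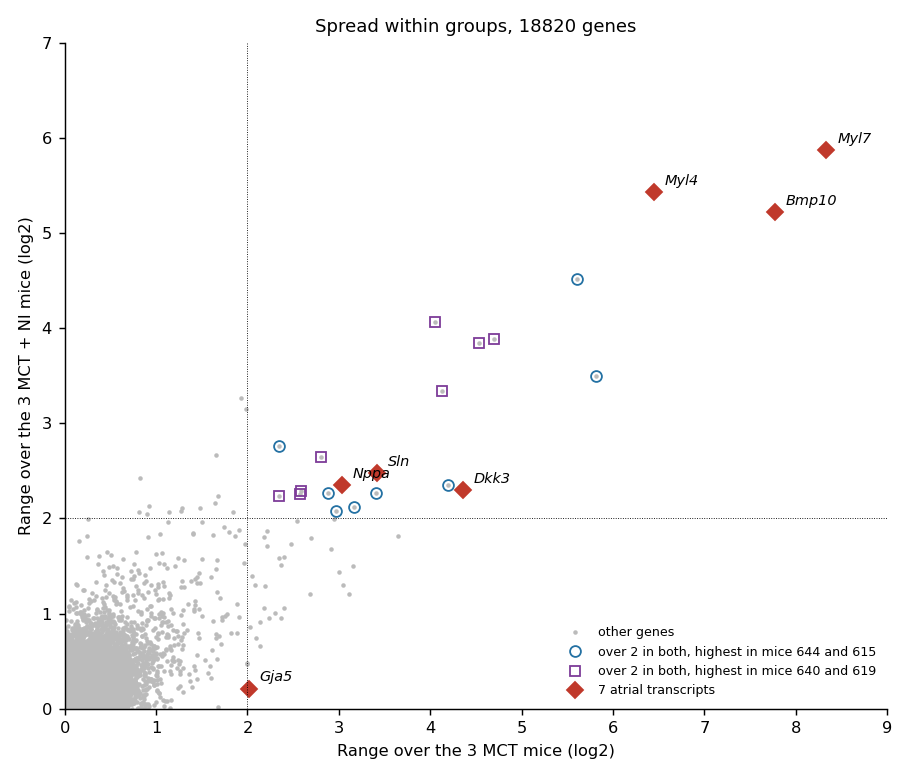
Each point is 1 of 18820 genes, placed by the range of its log2 intensity over the 3 MCT mice (horizontal axis) and over the 3 MCT + NI mice (vertical axis), with dotted lines at 2. Myl7, Bmp10 and Myl4 lie farthest from the origin, and Gja5 lies near the horizontal axis because its range in MCT + NI mice was 0.21.

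A longer list of genes known to be enriched in the atrium, from which the 7 transcripts were left out, held 12 measured genes. Mouse 644 was above the other MCT mice in 12 of these 12, mouse 615 above the other MCT + NI mice in 9, and both held in 9, or 75.0%, against 9.01% of all genes. Both also held in 83.3% of 6 fat markers and in 71.4% of 7 epicardium and mesothelium markers. Mybphl followed the 7 transcripts most closely, with 8.10, 9.59 and 9.53 in the sham mice, 3.16, 3.42 and 8.97 in the MCT mice and 7.06, 4.18 and 3.57 in the MCT + NI mice. Tbx5, a T-box factor of the atria and of the left side of the heart, was at 8.06, 8.01 and 9.46 in MCT mice 640, 641 and 644, and Stard10, a lipid transfer protein, at 8.16, 8.38 and 10.29. Pam, the amidating enzyme that is a main protein of atrial granule membranes, was at 10.23, 10.40 and 11.53. The gap between mouse 644 and the other MCT mice was smaller on the log2 scale for Tbx5, Stard10 and Pam than for Myl7 or Bmp10. Tbx5, Stard10, Pam and Mybphl did not pass the test in either comparison with sham mice, where the adjusted p of Mybphl was 0.193 and 0.168 (limma with Benjamini-Hochberg adjustment over all genes, as for each adjusted p below).

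The genes of the atrial list that passed in a comparison with sham mice were Kcnj3, Chrm2, Sbk2 and Kcna5. Kcnj3, a subunit of the channel that acetylcholine opens, was 9.61, 10.05 and 10.05 in the sham mice and 8.66, 8.87 and 8.51 in the MCT + NI mice, and it was lower by a log2 difference of -1.22 (standard error 0.24, adjusted p = 0.017). Between MCT and sham mice Kcnj3 differed by -0.93 (adjusted p = 0.052). Its partner subunit Kcnj5 differed by -0.66 and -0.89 from sham mice (adjusted p = 0.189 and 0.082), and Nr2f2, the factor COUP-TFII that keeps atrial identity, by -0.34 and -0.47 (adjusted p = 0.375 and 0.213). Chrm2, the muscarinic receptor that acts on this channel, was lower in both comparisons with sham, by -0.36 in MCT mice (adjusted p = 0.046) and -0.42 in MCT + NI mice (adjusted p = 0.025). The call in MCT mice was lost with quantile normalization (adjusted p = 0.052) and without the intensity trend (adjusted p = 0.074). Sbk2, a kinase of atrial muscle, was lower in MCT + NI mice by -1.77 (adjusted p = 0.049), a call lost without the intensity trend (adjusted p = 0.064) and with robust empirical Bayes (adjusted p = 0.063). Kcna5, a subunit of the ultrarapid potassium current of human atria, was higher in MCT + NI than in sham mice by 0.64 (adjusted p = 0.019). That call was lost without mouse 615, 617 or 619. In all, 1 of the 12 genes was lower in MCT than in sham mice (Chrm2), and 3 were lower and 1 higher in MCT + NI than in sham mice, with list medians of -0.74 and -0.97 against -0.02 and -0.02 over all genes. Across all genes 6.26% passed between MCT and sham mice, 1.61% as lower in MCT, and 6.26% passed between MCT + NI and sham mice, 1.75% as lower. Between MCT + NI and MCT mice 0.0% passed in limma, 0 of the 12 included, with 545 genes at an unadjusted p under 0.05 and a smallest adjusted p of 1.

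These counts rested on single mice. Without mouse 644 there were 9 of the 12 genes lower in MCT than in sham mice, among them Mybphl, Tbx5, Pam, Stard10 and Kcnj3, and without any 1 of mice 615, 619, 624 and 625 there were 0 lower in either comparison. Without both, 6 of the 12 were lower in each comparison with sham mice. Mouse 644 and mouse 615 were singled out for their atrial levels, so that the counts without them are no independent evidence.

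Genes of ventricular muscle were read in the same mice. They are genes of both ventricles, so they check the label as ventricular tissue and cannot tell the right side from the left or show whether atrial tissue was taken along. Myl2, the ventricular regulatory light chain, lay between 12.67 and 12.76 in all 9 mice, Pln, which encodes phospholamban, between 12.96 and 13.04, and Myl3, the ventricular essential light chain, between 11.87 and 12.11. Irx4, a ventricular transcription factor, lay between 7.48 and 7.91, and Hey2, another, between 6.30 and 6.56. Myh7, the slow myosin heavy chain, was at 7.62, 7.99 and 7.62 in the sham mice and highest in MCT mouse 640 (8.41), and it did not pass in any comparison. Kcnip2 and Kcnj2, which encode parts of potassium currents, lay between 8.49 and 9.26 and between 7.50 and 8.13, with differences of -0.37 for Kcnip2 in MCT mice (adjusted p = 0.092) and -0.37 for Kcnj2 in MCT + NI mice (adjusted p = 0.071). Irx5, another transcription factor, lay between 5.32 and 6.14. Of the 13 ventricular genes 1 passed, Fhl2, a protein of the sarcomere, which was higher in MCT mice by 0.20 (adjusted p = 0.024) and in MCT + NI mice by 0.23 (adjusted p = 0.012). Both calls were lost without the intensity trend. The call in MCT mice was also lost without mouse 620, 625, 640 or 641, and that in MCT + NI mice without mouse 619. The mean of the 13 genes lay between 9.22 and 9.44, with its lowest value in mouse 644. In 0 of the 13 genes was mouse 644 above the other MCT mice, against 4968 of all 18820 genes.

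**Figure D3:**
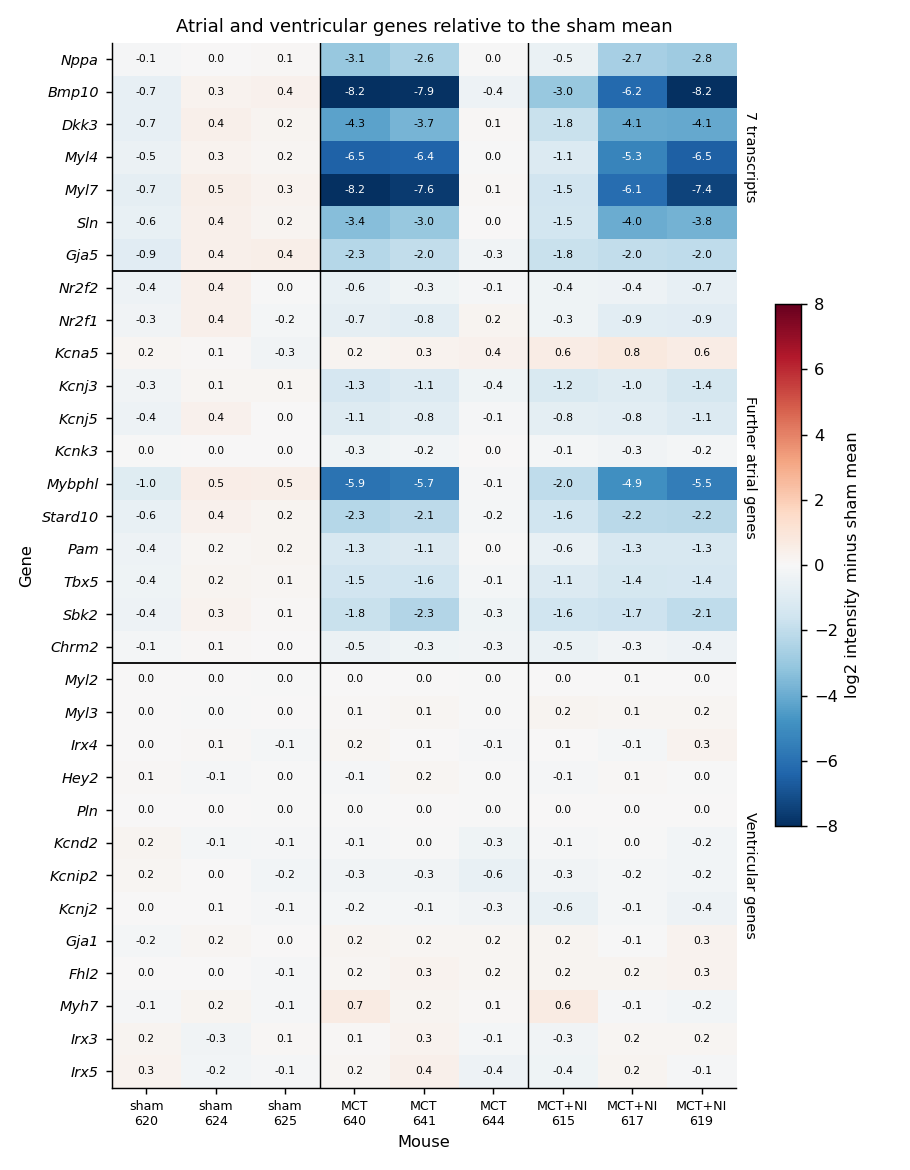
Log2 intensity minus the sham mean is shown by colour and by number for each mouse (columns) and gene (rows), for the 7 transcripts, 12 further atrial genes and 13 ventricular genes. Columns 640, 641, 617 and 619 are low for most atrial genes and mostly near 0 for the ventricular genes, and column 644 resembles the sham columns.

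Most partners of the 7 gene products did not fall and rise with them, although some lists held a larger share of such genes. Mouse 644 and mouse 615 were both highest in their groups for 38.5% of BMP10 receptors and targets and 35.7% of conduction genes. The share was 30.0% for the natriuretic peptide system, 25.0% for the calcium pump list and 9.01% for all genes. It was 11.1% for arterial endothelium, 10.0% for the Dickkopf list and 0.0% for myosin partners and connexins. Of the 10 measured genes of the natriuretic peptide system, Corin, the protease that cuts the Nppa product into the active hormone, was lower in MCT mice by -0.39 (adjusted p = 0.013) and in MCT + NI mice by -0.49 (adjusted p = 0.0044), and it was the 1 gene of this list that passed. Npr3, the receptor that clears natriuretic peptides, followed the atrial transcripts (r = 0.96) with 8.22, 9.32 and 9.41 in sham, 6.71, 7.06 and 8.60 in MCT and 7.59, 6.49 and 6.61 in MCT + NI mice, and its adjusted p between MCT + NI and sham mice was 0.051. Nppb, which encodes the B-type peptide of strained muscle, did not. It was highest in MCT + NI mouse 615 (10.24), was 9.27 in MCT mouse 640, where Nppa was lowest, and was lowest in MCT + NI mouse 617 (6.97).

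Of 9 measured myosin partners, Mylk3, the kinase that phosphorylates the ventricular light chain, was lower in MCT mice by -0.35 (adjusted p = 0.010) and in MCT + NI mice by -0.37 (adjusted p = 0.0084). Myl1, a fast skeletal light chain, was lower in MCT + NI mice by -0.94 (adjusted p = 0.037). Acta1, the skeletal form of actin that returns in loaded heart muscle, was at 6.99, 7.37 and 6.62 in the sham mice and at 9.85 in mouse 615, with an adjusted p of 0.064 between MCT + NI and sham mice. Myh6 was not measured here by a probe set of its own. Among 8 genes of the calcium pump and its regulators, the pump gene Atp2a2 lay between 12.84 and 12.92 in all mice, while Ryr2, the calcium release channel, was lower in MCT mice by -0.17 (adjusted p = 0.023).

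Of 13 measured receptors and targets of BMP10, 9 were higher in mouse 644 than in the other MCT mice, against 4968 of all 18820 genes. Their widest range over the 9 mice was 1.47. Bmpr2, the type 2 receptor of BMP10, was lower in MCT + NI than in sham mice by -0.22 (adjusted p = 0.030), and no other gene of this list passed. The 10 measured genes of the Dickkopf family and its co-receptors included 0 that passed, as did the 7 other connexins, where Gja1, which encodes Cx43, differed by 0.19 in MCT mice (adjusted p = 0.34). Since Cx40 is also a protein of arterial endothelium, 9 genes of those cells were read beside Gja5. Jag1, a Notch ligand, Nrp1, a coreceptor of VEGF, and Unc5b, a netrin receptor, were higher in MCT mice, by 0.36, 0.35 and 0.59 (adjusted p = 0.012, 0.015 and 0.028), whereas the arterial genes Sox17 and Efnb2 did not pass. Conduction tissue holds Cx40 as well. Of 14 measured conduction and pacemaker genes, Etv1, a factor of atrial and fast-conducting cells, was lower in both comparisons with sham, by -0.55 and -0.66 (adjusted p = 0.0061 and 0.0026), and Smoc2, a matrix protein, was higher, by 0.49 and 0.54 (adjusted p = 0.0078 and 0.0047). Hcn4, the pacemaker channel, lay between 5.66 and 6.40 and did not pass. Of 11 measured cardiac transcription factors, a list that shares Tbx5 with the atrial list, 0 passed. Mouse 644 was above the other MCT mice in 7 of the 11, against 4968 of all 18820 genes. Mice 644 and 615 were both highest in their groups for 18.2%, against 9.01% of all genes. A correlation of at least 0.9 with the atrial transcripts was found for 2 of the 11. As 1 gene of this list, Nkx2-5 was at 7.95, 7.96 and 8.02 in the sham mice and at 7.62, 7.70 and 7.98 in MCT mice 640, 641 and 644. This was a far smaller difference than in any of the 7 transcripts.

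Over all 155 listed genes that were measured, 14 passed in the comparison of MCT with sham mice, 9 of them higher and 5 lower in MCT. Across all 18820 genes 1179 passed there, or 6.26%, with 876 higher and 303 lower. The comparison of MCT + NI with sham mice gave 17, with 9 higher and 8 lower, and that of the groups given MCT gave 0. Among all genes these comparisons gave 1179, again 6.26%, with 850 higher and 329 lower, and 0. Without mouse 644 the counts against sham mice were 28 and 28, of which 19 and 18 were lower. Over all genes 1053 and 1159 passed in that setting, 306 and 372 of them lower. Without mouse 640 or 641, 8 and 7 listed genes passed between MCT and sham mice. The count over all genes fell as well, from 1179 to 676 and 767.

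Markers of other tissues at the edge of the ventricle were read in the same mice. Of all 18820 genes, 4968 were highest in mouse 644 among MCT mice and 5502 in mouse 615 among MCT + NI mice. Of 7 measured epicardium and mesothelium markers, 6 were higher in mouse 644 than in the other MCT mice and 6 higher in mouse 615 than in the other MCT + NI mice. Their mean lay between 4.56 and 4.87 in sham, 4.17 and 5.41 in MCT and 4.43 and 5.47 in MCT + NI mice. Upk3b was at 4.20, 5.10 and 7.17 in MCT mice 640, 641 and 644 and at 7.26, 5.71 and 5.18 in MCT + NI mice 615, 617 and 619, although the sham mice had 6.43, 6.64 and 6.05. Against sham mice Wt1, an epicardial factor, was higher with MCT and with MCT + NI by 0.97 and 0.96 (adjusted p = 0.0017 and 0.0019) and did not follow the atrial transcripts. Valve and cartilage markers had means between 4.80 and 5.09 in sham, 4.32 and 5.50 in MCT and 4.52 and 5.16 in MCT + NI mice, highest in mouse 644. Comp, a cartilage matrix protein, correlated with the atrial transcripts (r = 0.96), the only 1 of these 6 markers to reach 0.9. Fat markers had means between 3.48 and 4.34 in sham, 3.50 and 4.20 in MCT and 3.61 and 4.28 in MCT + NI mice, and their defining gene Adipoq lay between 3.02 and 4.57, below the median gene on each array. Of 6 measured fat markers, 5 were higher in mouse 644 than in the other MCT mice and 5 higher in mouse 615 than in the other MCT + NI mice. Over all 9 mice their mean was highest in mouse 620, which was the lowest sham mouse for the atrial transcripts. The part of these tissues in the atrial levels was not tested. Nerve markers had means between 4.03 and 4.17, skeletal muscle markers between 3.76 and 3.89 and lung epithelium markers between 3.50 and 4.07 in all mice. Smooth muscle markers had means between 6.84 and 7.14, and Smtn and Tagln were higher in MCT than in sham mice by 0.23 and 0.58 (adjusted p = 0.0057 and 0.024), while Acta2 was higher in MCT + NI than in sham mice by 0.62 (adjusted p = 0.0045). Uchl1, the 1 nerve marker that passed, was higher both in MCT and in MCT + NI mice than in sham mice (adjusted p under 0.05 in each).

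**Figure D4:**
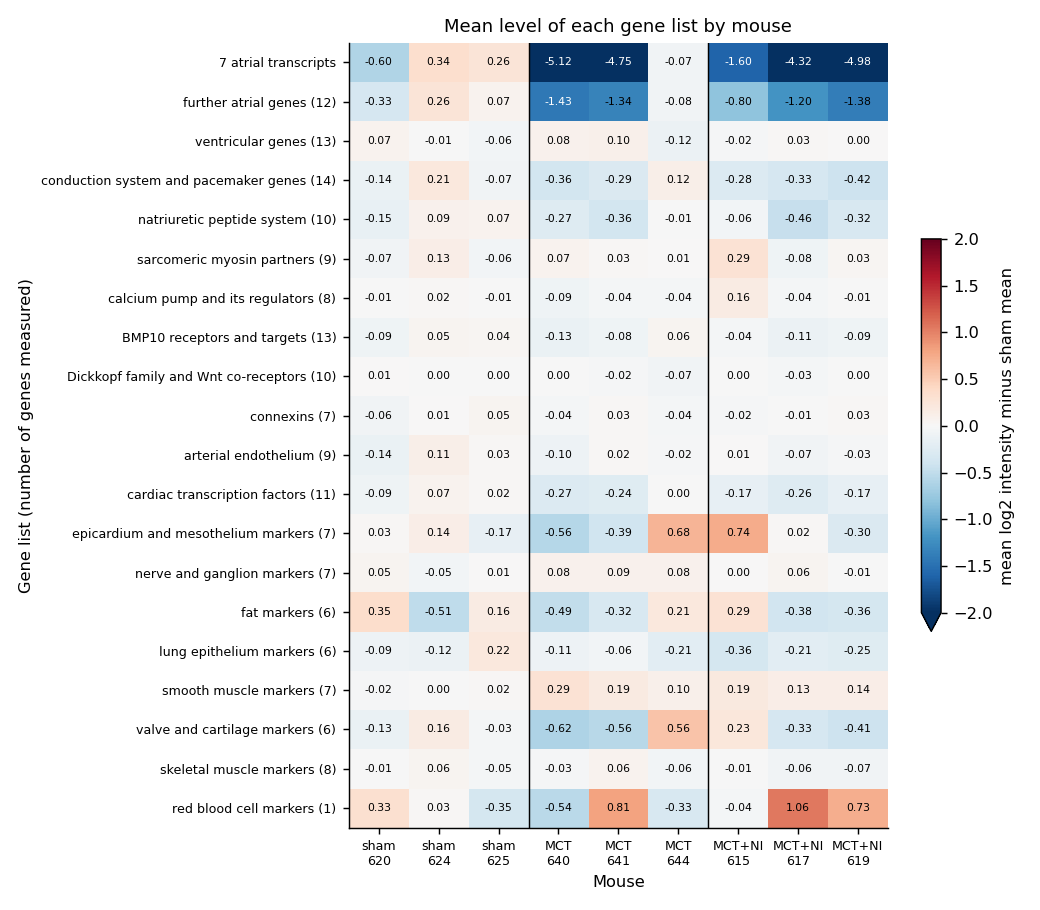
The mean log2 intensity of each gene list minus its sham mean is shown by colour and by number for each mouse (columns), with the number of measured genes behind each list (rows). The 7 atrial transcripts were -5.12 and -4.75 in MCT mice 640 and 641 and -0.07 in mouse 644, and apart from the further atrial genes no list moved by more than 1 on this scale except the single red blood cell marker.

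Genes with the same pattern were sought among 626 genes at or above the median level whose range over the 9 mice was at least 1. The measure of likeness was the correlation over the 9 mice with the mean of the 7 transcripts after each had been scaled to unit spread. The 10 most alike were Mybphl (0.998), Vsig4, Fgf12, Gpx3, Tmem163, Cfhr2, Cytl1, Cxcl13 and Pam (0.99 each), and Mlana (0.98). Vsig4 is a complement receptor of resident macrophages, Fgf12 a factor that binds sodium channels inside the cell, Gpx3 a secreted glutathione peroxidase, Cxcl13 a chemokine of B cells and Mlana a protein of pigment cells. Fgf12 had 7.14, 8.30 and 8.03 in the sham mice, 3.79, 4.14 and 7.44 in the MCT mice and 6.13, 4.61 and 4.32 in the MCT + NI mice. Cxcl13 had 7.05, 7.90 and 8.20 in the sham mice, 4.31, 4.32 and 7.26 in the MCT mice and 6.54, 5.09 and 4.55 in the MCT + NI mice. Each of the 10 showed mouse 644 near the sham mice and mouse 615 between the high and the low set.

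A correlation of at least 0.9 was found for 55 of the 626 genes, for 8 of the 12 further atrial genes, for 0 of the 13 ventricular genes and for 130 of all 18820 genes, or 0.69%. Leaving out mice 640 and 619, the most distant from the median, gave 0.98 to 0.997 for the 10 genes, and rank correlations were 0.87 to 0.98. The 5 most opposite genes were Thy1, a surface protein of fibroblasts and nerve (-0.95), Il34, a macrophage growth factor (-0.95), Meox2 and Gpihbp1 of capillary endothelium (-0.89 each) and Mt2, a metallothionein (-0.88). Thy1 was at 6.17, 5.54 and 5.55 in the sham mice, 6.91, 6.95 and 6.17 in the MCT mice and 6.24, 6.65 and 6.96 in the MCT + NI mice, so that mouse 644 matched sham mouse 620. No p is given for these correlations, because the 9 mice fall into separate sets and the 7 transcripts were chosen for this pattern.

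**Figure D5:**
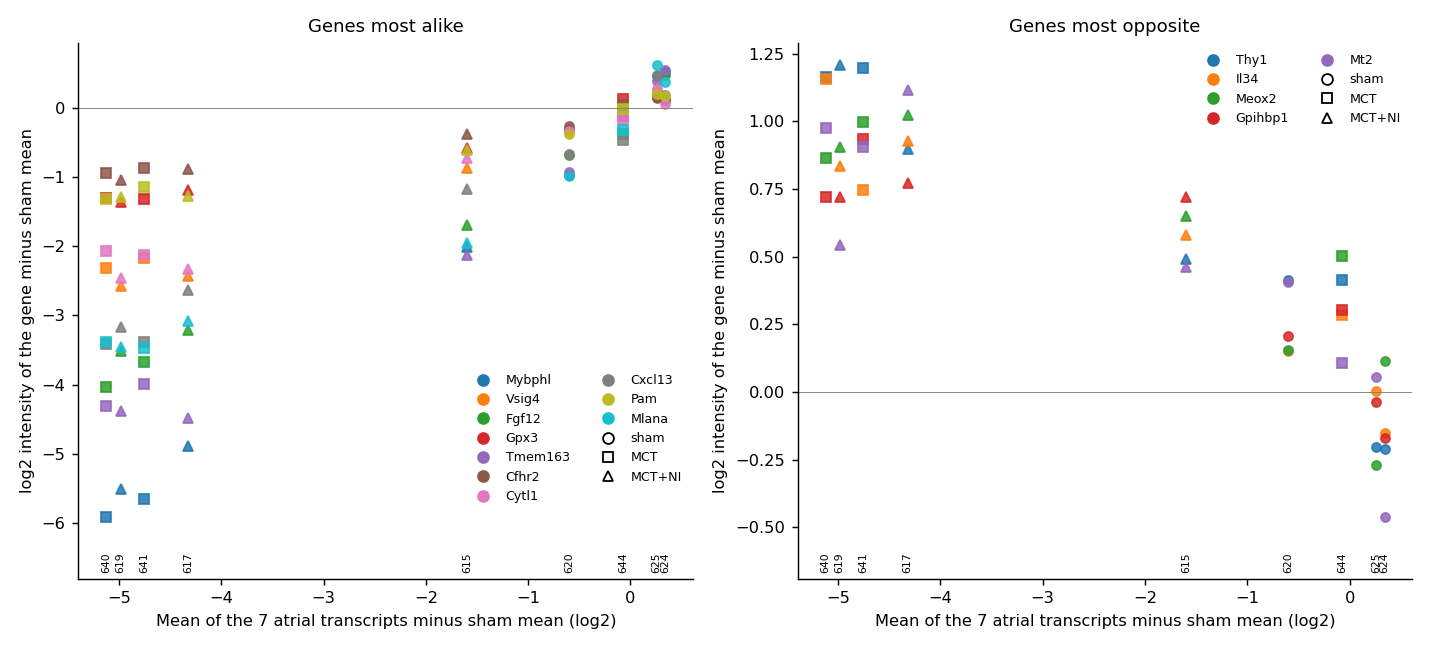
The log2 intensity of the 10 genes most alike (left) and the 5 most opposite (right), minus the sham mean, is plotted against the mean of the 7 atrial transcripts minus its sham mean, with a symbol for each mouse and group. Mice 640, 641, 617 and 619 form the low set on the left of each panel, mouse 615 lies at -1.60 and the other 4 lie between -0.60 and 0.34.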

How the data were processed

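The deposited values were log2 intensities of 35556 manufacturer's probe sets, 1 array per mouse, which the authors computed by RMA (background correction, quantile normalization and summary, version not given in the sources used here). Entrez-based probe sets, which the methods mention, were not used here. For 100 ng of RNA per array the labels give RNeasy Micro isolation with Whole-Transcript Sense labelling, and the methods give trizol with the WT plus kit. RMA pulls arrays to a common distribution, and low intensities keep background signal, so that ratios at low levels are compressed. Precision is limited by the 3 arrays per group.

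Probe sets with 1 gene in the platform annotation (21218) were used, those with several (1881) or none (12457) were left out, and the brightest represented each of 1386 genes with several, which gave 18820 genes. limma 3.58.1 (R 4.3.3) fitted 1 mean per group over 9 mice with an intensity trend, two-sided, with Benjamini-Hochberg adjustment over all genes and a threshold of 0.05. The procedure was tested on simulated data. Descriptions used Python 3.11.15 with pandas 2.3.3, and promoter stretches came from RefSeq (GRCm38.p6).

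The 7 transcripts, the 19 gene lists, the groups compared and the alternatives were chosen with earlier results of these data known. Genes named were the 7 transcripts, up to 6 genes per list that passed in a comparison, a fixed set of partners, the 10 most alike and 5 most opposite genes and, per group, the 5 other genes of widest range. Further genes, such as Stard10, Nkx2-5, Comp, Upk3b and Adipoq, were named after their values were seen. Scan dates were not used here.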

Additional observations from a re-analysis of the deposited data

How the results depend on the processing

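The differences in the mean of the 7 transcripts and in each single transcript moved by less than the spread between mice under every alternative run (mean of probe sets, quantile normalization, leaving out mice). No stability is read from this. Each transcript had 1 probe set, and the deposited values were already quantile normalized. With 3 mice per group, leaving out 1 mouse cannot move a group mean by more than its SD. Leaving out 1 mouse at a time gave -4.94 to -2.41 for the mean of the 7 between MCT and sham mice, -1.34 to 1.3 between MCT + NI and MCT mice and -4.65 to -2.96 between MCT + NI and sham mice. The number of genes that passed then ranged from 676 (without mouse 640) to 1196 between MCT and sham mice, where 1179 passed with all mice, stayed at 0 between MCT + NI and MCT mice, and ranged from 625 (without mouse 619) to 1183 between MCT + NI and sham mice, again from 1179. Without mouse 641 it was 767 in the first comparison, and without mouse 615 it was 682 in the last. Without mice 644 and 615 together it was 720 in the last. Listed genes that passed ranged from 7 (without mouse 641) to 28 (without mouse 644) between MCT and sham mice, 0 to 0 between MCT + NI and MCT mice, and 7 (without mouse 619) to 28 (without mouse 644) between MCT + NI and sham mice. Without mouse 640 there were 8 in the first comparison, and without mouse 624 or 615 there were 10 or 11 in the last. Without mice 644 and 615 together 23 passed in the first. With the genes at or above the median level alone, 29 of 97 passed in the last, against 17 of 155 with all. The count over all genes rose too, to 1274 of 9410 in that setting, against 1179 of 18820. The cause was not tested.

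Quoted differences of listed genes that passed kept their sign in all 496 refits and lost their call in 89, with 1 loss without mouse 644 and 11 without mouse 619. The refits reused most or all of the arrays on which these genes had passed, so the kept sign shows little. No paired analysis was possible because the mouse numbers are shared by no groups. Values near the lower end of an array, as for Bmp10, Myl7 and Sln in mice 640 and 619, limit how far a ratio can be read, and no detection call was used here.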

Other observations

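The genes that varied most within the sham group, other than the atrial transcripts, were Alb, the plasma protein albumin (range 4.02, from 4.29 in mouse 625 to 8.31 in mouse 624), Car3, a carbonic anhydrase of fat and muscle (2.96, highest in mouse 620), Scgb1a1, a secretory protein of airway epithelium (2.52, highest in mouse 625), and the metabolic genes Pdk4 (2.39) and Ucp3 (2.26), both lowest in mouse 624. Mouse 624 was thus not low in the atrial transcripts but low in these 3 genes of fuel use and fat.

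In the MCT and MCT + NI groups the widest ranges beside the atrial transcripts belonged to Mybphl, Hamp and Tmem163, highest in mouse 644 among MCT mice, and to the interferon-induced GTPase genes Gm4841, BC023105 and Gm12185. Gm4841 was at 6.12, 5.65 and 6.29 in the sham mice, at 11.20 in MCT mouse 640 and 6.50 in mouse 641, and in the MCT + NI group it was highest in mouse 619, with a range of 3.89. BC023105 ranged over 4.53 among MCT mice and over 3.85 among MCT + NI mice, highest in the same mice 640 and 619, and it was at 10.47 in mouse 644 and 9.36 in mouse 615, above the 7.10 of mouse 641 and the 7.90 of mouse 617. Hamp had ranges of 5.60 and 4.52 and was highest in mice 644 and 615.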
